A study of Mus musculus with 4 samples.

Results

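The transcripts of 10 genes of the circadian clock were examined in the livers of 4 mice: the activators Arntl, Clock and Npas2, the repressors Per1, Per2, Per3 and Cry1, the nuclear receptors Nr1d1 and Nr1d2, and the output factor Dbp. They were selected by symbol, and all 10 were found among the 24138 rows of the deposited expression table. The livers came from male C57BL/6J mice aged 18 weeks. Each animal had been fed the FAT-MASH diet and had also been given RvD1 (resolvin D1, a mediator that cells make from an omega-3 fatty acid when inflammation subsides). MASH stands for metabolic dysfunction-associated steatohepatitis, in which a fatty liver becomes inflamed and scarred. All 4 livers belong to this single group and are called livers 1 to 4 after their labels. The values therefore describe levels and their spread among treated animals: without control livers there was nothing to test, and neither the diet nor RvD1 can be assessed. The labels give neither a time of day for the collection nor a feeding state.

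The circadian clock is a feedback loop of transcription that runs in nearly every cell. The proteins of Arntl (also called Bmal1) and Clock bind together to E-box sequences and activate the Per and Cry genes, Nr1d1, Nr1d2 and Dbp, and the PER and CRY proteins then inhibit that activation. The REV-ERB proteins made from Nr1d1 and Nr1d2 repress Arntl and Cry1 through elements that they share with the ROR receptors. In mouse liver these transcripts rise and fall over the day, with Dbp and Nr1d1 peaking at a phase nearly opposite to that of Arntl, and feeding time is a strong timing cue for this tissue.

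Levels are given in fragments per kilobase of transcript per mega mapped fragments (FPKM), the unit taken for the deposited values. The estimated depth was between 18.8 and 20.1 M fragments (M, mega) per library. A gene with a mean of at least 1 FPKM was called expressed, which 10541 rows were. The hepatocyte transcripts Apoa1, Apoa2, Ttr and Fabp1 were among the most abundant in each liver, whereas Alb was listed at 0 in all 4. The tissue is a mixture of cells, and in such bulk samples fewer cells of a type and less RNA per cell cannot be told apart.

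Matches to regulatory elements of the clock were found in the promoter sequences of Nr1d1, Cry1, Per1, Per3 and Arntl. Windows from 250 bases before to 50 bases after an annotated start were taken from RefSeq (GRCm38.p6), where 13 windows matched 9 of the 10 genes; Per2 had no entry. The sequences below are the 250 bases before an annotated start of the expressed clock gene with the largest SD between livers on the log2(FPKM + 1) scale (Nr1d1), of the gene that ran opposite to it (Cry1), and of the Per genes with the larger and the smaller SD (Per1 and Per3), written 5′ to 3′ along the gene, with motif matches in capitals.
Nr1d1 (chr11:98775378-98775627, minus strand): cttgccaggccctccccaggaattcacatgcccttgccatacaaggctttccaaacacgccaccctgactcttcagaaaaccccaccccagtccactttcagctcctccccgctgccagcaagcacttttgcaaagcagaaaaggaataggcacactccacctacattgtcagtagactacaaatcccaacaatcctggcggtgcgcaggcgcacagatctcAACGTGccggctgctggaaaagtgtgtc
Cry1 (chr10:85185055-85185304, minus strand): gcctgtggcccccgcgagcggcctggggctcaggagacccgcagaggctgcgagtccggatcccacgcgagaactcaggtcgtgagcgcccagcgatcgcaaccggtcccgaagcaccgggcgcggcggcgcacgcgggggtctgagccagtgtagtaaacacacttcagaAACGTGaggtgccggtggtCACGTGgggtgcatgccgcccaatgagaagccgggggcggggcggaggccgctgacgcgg
Per1 (chr11:69098699-69098948, plus strand): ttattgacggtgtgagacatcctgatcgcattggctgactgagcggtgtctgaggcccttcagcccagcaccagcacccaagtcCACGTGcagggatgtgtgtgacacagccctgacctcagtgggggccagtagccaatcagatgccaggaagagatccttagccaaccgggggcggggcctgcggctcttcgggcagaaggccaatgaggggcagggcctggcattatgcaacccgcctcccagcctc
Per3 (chr4:151044666-151044915, minus strand): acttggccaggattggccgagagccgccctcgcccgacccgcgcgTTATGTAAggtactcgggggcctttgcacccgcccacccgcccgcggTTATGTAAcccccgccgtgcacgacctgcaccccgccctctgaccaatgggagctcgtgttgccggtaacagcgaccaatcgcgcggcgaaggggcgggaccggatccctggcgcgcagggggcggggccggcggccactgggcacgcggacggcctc

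The 5 motifs named here were searched on both strands of each window, and none of them overlaps another within the sequences shown. The E-box CACGTG, bound by the ARNTL and CLOCK proteins, was found at -60 in Cry1 and at -166 in Per1, counted from the start, and 7.15% of all 32851 windows held it. The related E′-box CACGTT, which reads AACGTG on the other strand, was found at -79 in Cry1 and at -28 in Nr1d1, against 4.68% of all windows. The D-box TTATGTAA, bound by DBP and its relatives, was found at -205 and again at -158 in Per3, and 0.938% of all windows held at least 1. The cyclic AMP response element TGACGTCA was in 0 of the 13 windows, against 1.79% of all. Per1 has 2 annotated starts in that table, and the window of the other, which is not shown, held 0 matches to the 5 motifs. Only exact matches to the motif letters were counted, so elements that differ by a base were missed. Clock, Npas2, Nr1d2 and Dbp had a window but no match to any of the 5 motifs. The matches found are letters in a window and show no binding.

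The element shared by the REV-ERB and ROR proteins, searched as AAN followed directly by TAGGTNA, was matched only in Arntl among the 9 genes with a window, and in 0.682% of all windows. Arntl held 2 copies within a short stretch at its annotated starts, shown here because REV-ERB acts on this gene through them.
Arntl, first copy (chr7:113207493-113207514, plus strand): ttggtcggaAAGTAGGTTAgtg
Arntl, second copy (chr7:113207529-113207556, plus strand): gaaggcagaAAGTAGGTCAgggacggag

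The 10 transcripts spanned a wide range of levels, from Dbp at the top to Npas2 near the limit of detection. By mean FPKM the order was Dbp, Nr1d1, Nr1d2, Per1, Per3, Per2, Cry1, Clock, Arntl and Npas2. Dbp lay above Nr1d1 in all 4 livers with no overlap between their ranges, and the same held for Nr1d2 over Per1, Cry1 over Clock, Clock over Arntl and Arntl over Npas2. The neighbours Nr1d1 and Nr1d2 overlapped, with Nr1d1 higher in 3 of 4 livers. Per1, Per3 and Per2 overlapped one another in range. Per1 exceeded Per2 within each of the 4 livers, while the place of Per3 was not resolved: Per1 exceeded Per3 in 1 of 4 livers although its mean was higher, and Per3 exceeded Per2 in 3 of 4. Per2 exceeded Cry1 within each of the 4 livers, although the ranges of the 2 genes over all livers overlapped.

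**Figure D1:**
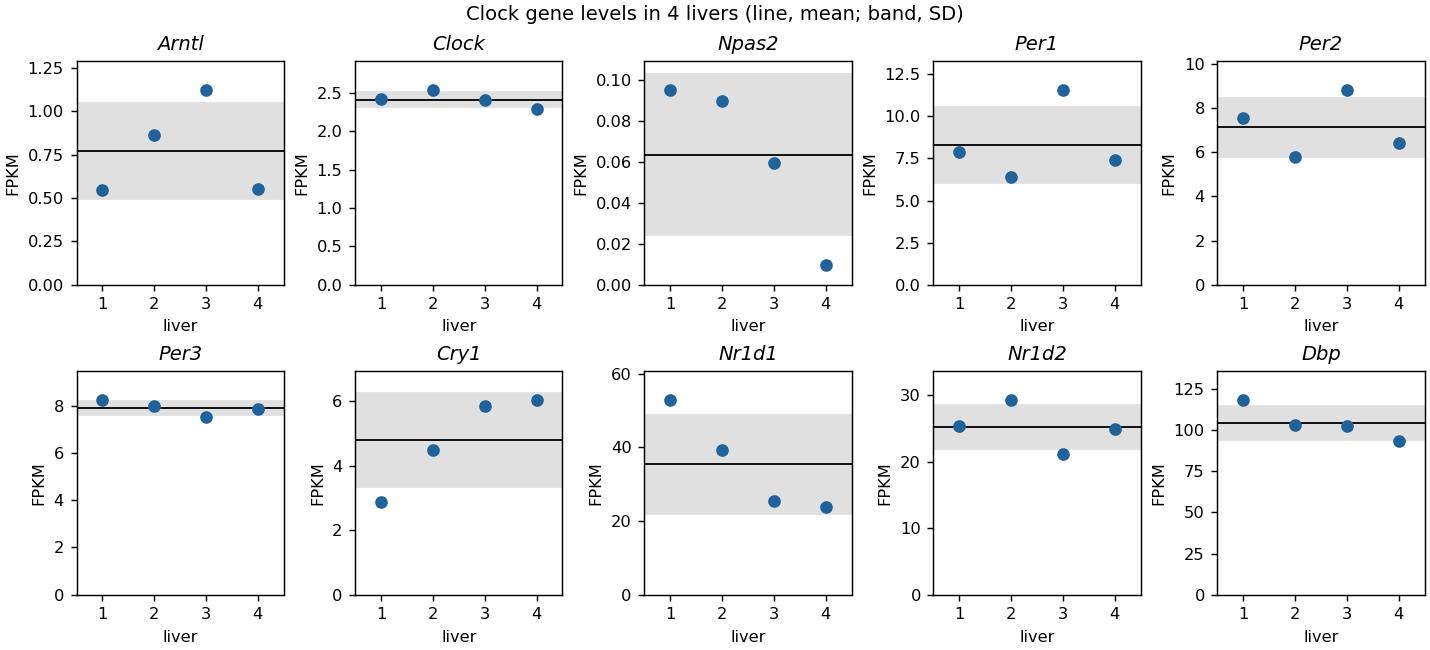
FPKM (vertical axes, each from 0 with its own scale) of the 10 clock genes in livers 1 to 4 (points); the line is the mean and the grey band the mean ± SD of the 4 livers. Nr1d1 is highest and Cry1 lowest in liver 1, Per1 and Per2 are highest in liver 3, and Clock and Per3 are nearly level.

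Among the activators, Arntl and Npas2 were low and Clock was steady. Arntl (XLOC_019095, chromosome 7, 113207465 to 113314126) encodes BMAL1, the partner without which the loop does not run, and had 0.549, 0.862, 1.12 and 0.554 FPKM in livers 1 to 4, with a mean of 0.772 ± 0.276 FPKM (SD, n = 4). Livers 1 and 4 were close together and low, and liver 3 was 2.04-fold above the lowest. Median-ratio scaling and scaling to the same total both put liver 4 in place of liver 1 as the lowest. Its 4 values corresponded to about 44.1, 66.6, 87.6 and 41.7 fragments, on its longest GENCODE transcript at the estimated depth. Clock (XLOC_016572, chromosome 5) encodes the DNA-binding partner of BMAL1 and was listed at 2.42, 2.54, 2.41 and 2.29 FPKM, a mean of 2.41 ± 0.10 FPKM (SD, n = 4). The 4 livers thus lay within 1.11-fold of each other. The deposited span of Clock, 76183880 to 76469519, is also that of Tmem165, Pdcl2, Nmu and Mir1191, so it does not delimit the gene.

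Npas2 (XLOC_000081, chromosome 1, 39194272 to 39363240), a relative of Clock that can take its place, had 0.0950, 0.0899, 0.0597 and 0.00955 FPKM in livers 1 to 4. These values corresponded to about 8.08, 7.36, 4.94 and 0.762 fragments. The 9.95-fold range between the highest and the lowest liver therefore rests on a handful of fragments, and without liver 4 it was 1.59-fold.

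Among the repressors, Cry1 varied most over all 4 livers, Per1 and Per2 had the same order of livers at their extremes, and Per3 barely varied. Cry1 (XLOC_002248, chromosome 10, 85131700 to 85185054) encodes a cryptochrome, the stronger repressor of the CLOCK and BMAL1 pair, and had 2.88, 4.47, 5.85 and 6.03 FPKM in livers 1 to 4, with a mean of 4.81 ± 1.46 FPKM (SD, n = 4). Liver 1 was low, and livers 3 and 4 were high and close together. The highest liver was 2.09-fold above the lowest, and 1.35-fold above the lowest when liver 1 was left out. Without liver 1, Per1 (1.80-fold) and Per2 (1.53-fold) varied more than Cry1. Scaling all libraries to the same total put liver 3 in place of liver 4 as the highest.

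Per1 (XLOC_002800, chromosome 11, 69098956 to 69109957), a period gene that also responds quickly to glucocorticoids and to cyclic AMP, was listed at 7.86, 6.41, 11.6 and 7.43 FPKM, a mean of 8.31 ± 2.24 FPKM (SD, n = 4). Liver 3 stood above the other 3, which lay within 1.23-fold of each other. Per2 (XLOC_000947, chromosome 1, 91415982 to 91459328), its close relative, was listed at 7.54, 5.78, 8.82 and 6.41 FPKM, a mean of 7.14 ± 1.34 FPKM (SD, n = 4). Per2 followed the same order of livers as Per1, highest in liver 3, then livers 1, 4 and 2. The log2 ratio of Per1 to Per2 was 0.06, 0.15, 0.39 and 0.21 in livers 1 to 4, so Per1 exceeded Per2 most in liver 3. Per3 (XLOC_015580, chromosome 4, 151003655 to 151044665) was listed at 8.23, 7.99, 7.52 and 7.85 FPKM, a mean of 7.90 ± 0.297 FPKM (SD, n = 4). Its livers lay within 1.09-fold of each other, and liver 3, the highest for Per1 and Per2, was the lowest for Per3, except that liver 4 was lowest when libraries were scaled to the same total.

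The REV-ERB gene Nr1d1 varied most of the expressed clock genes over all 4 livers. Nr1d1 (XLOC_003970, chromosome 11, 98767932 to 98775377), which encodes REV-ERB alpha, a repressor that links the clock to lipid and glucose metabolism in liver, had 52.7, 39.3, 25.4 and 23.9 FPKM in livers 1 to 4, with a mean of 35.3 ± 13.5 FPKM (SD, n = 4). Liver 1 was high, liver 2 intermediate, and livers 3 and 4 low and close together. The highest liver was 2.21-fold above the lowest, and the range was 1.65-fold without liver 1. Without liver 1, Per1 varied more, with a range of 1.80-fold and an SD on the log2(FPKM + 1) scale of 0.40, against 0.38 for Nr1d1. Nr1d2 (XLOC_006462, chromosome 14, 18204056 to 18239106), which encodes the related REV-ERB beta, was listed at 25.4, 29.2, 21.2 and 24.9 FPKM, a mean of 25.2 ± 3.27 FPKM (SD, n = 4). Its highest value was in liver 2 and its range was 1.38-fold, and the log2 ratio of Nr1d1 to Nr1d2 was 1.05, 0.43, 0.26 and -0.06 in livers 1 to 4, a 2.17-fold range that was 1.40-fold without liver 1. Thra, the gene on the opposite strand whose end overlaps that of Nr1d1, had 3.40, 3.51, 4.01 and 3.49 FPKM. The strand setting of the quantification is not given in the sources used here, so reads of the overlap cannot be told apart. Thra was lowest in liver 1, where Nr1d1 was highest.

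Dbp (XLOC_018760, chromosome 7) was the most abundant of the 10. It encodes a PAR bZIP transcription factor that carries the rhythm to D-box genes, many of them in drug and lipid metabolism, and it had 118, 103, 102 and 93.6 FPKM in livers 1 to 4, with a mean of 104 ± 10.1 FPKM (SD, n = 4). Liver 1 was highest and liver 4 lowest, as for Nr1d1, but the range was 1.26-fold. The deposited span, 45705247 to 45718002, is shared with Sphk2, a gene on the opposite strand that had 15.9, 15.3, 23.3 and 17.6 FPKM.

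Nr1d1 and Cry1 ran in opposite directions across the livers. Relative to its mean on the log2(FPKM + 1) scale, Nr1d1 was at 0.64, 0.22, -0.39 and -0.47 in livers 1 to 4, and Cry1 at -0.54, -0.05, 0.28 and 0.31. When 10524 expressed genes above 0 in all livers were ranked by the root mean square difference between their deviations and the sign-reversed deviations of Nr1d1, Cry1 was in place 9, with a difference of 0.14. The next clock gene in that ranking was Per1, in place 3130. Nr1d1 was the reference because its SD was the largest among the clock genes, and a rank over 4 livers is a description. Of the clock genes, Dbp was nearest to Nr1d1 in the same direction, in place 586 with a difference of 0.35.

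**Figure D2:**
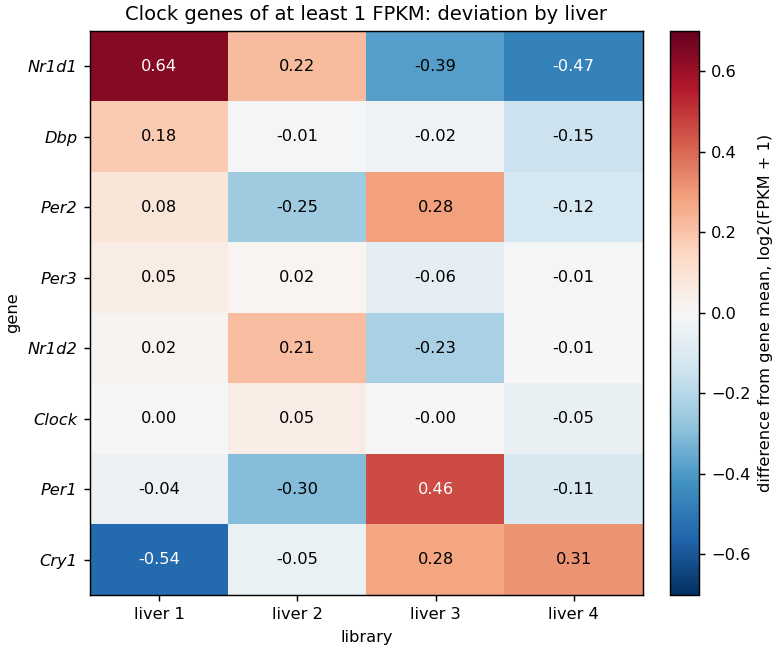
Difference of each of the 8 expressed clock genes from its own mean over the 4 livers, in log2(FPKM + 1), for livers 1 to 4 (columns; red, above the mean; blue, below it; the value is printed in each cell). Nr1d1 and Cry1 have opposite signs in every liver, and Per1 and Per2 share their peak in liver 3 and their lowest value in liver 2.

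The ratio of 2 transcripts within a library does not depend on how libraries are scaled. The log2 ratio of Cry1 to Nr1d1 was -4.19, -3.13, -2.12 and -1.99 in livers 1 to 4, which is a 4.61-fold range, and 2.22-fold without liver 1. This pair was chosen after its values were seen. The log2 ratio of Arntl to Dbp, 2 genes of nearly opposite phase, was -7.75, -6.90, -6.51 and -7.40, a mean of -7.14 ± 0.55 (SD, n = 4) and a 2.36-fold range. That range was 1.86-fold without liver 1 and 1.80-fold without liver 3. Dbp thus exceeded Arntl by a wide margin in all 4 livers, by least in liver 3 and by most in liver 1. Arntl to Nr1d1 gave -6.59, -5.51, -4.50 and -5.43, again lowest in liver 1 and highest in liver 3, a 4.24-fold range that was 2.01-fold without liver 1 and 2.23-fold without liver 3. Liver 1 was at the low end of all 3 ratios, but these share the genes Arntl and Nr1d1 and are not independent.

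**Figure D3:**
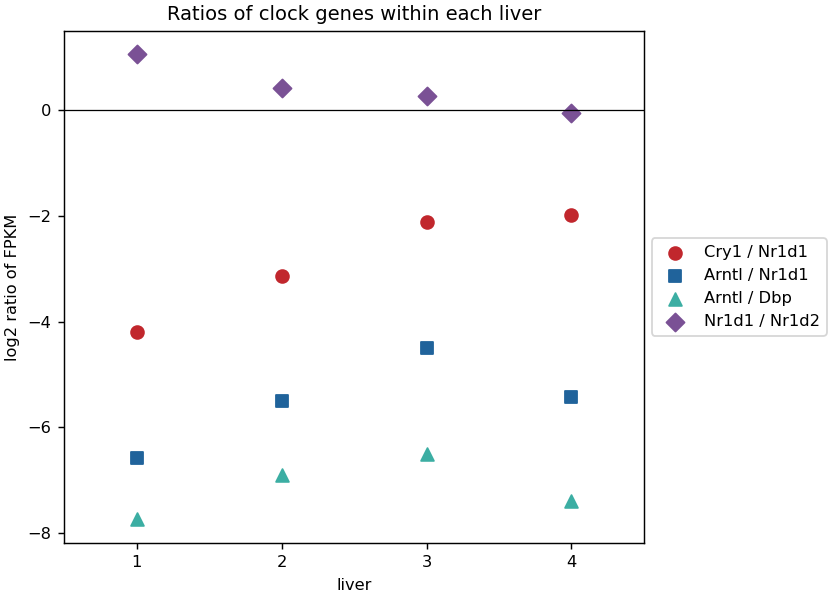
log2 ratio of FPKM (vertical axis) of 4 pairs of clock genes within livers 1 to 4 (horizontal axis), 1 point per liver. Cry1 over Nr1d1 lies between -4.19 and -1.99, and the 3 ratios that have Cry1 or Arntl as numerator are lowest in liver 1.

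The 8 expressed clock genes ranged from widely varying to nearly level. A highest liver at least 2-fold above the lowest was found for 2 of the 8, Nr1d1 and Cry1, against 6.54% of all expressed genes. With liver 1 left out the number was 0 of 8, against 5.03% of all expressed genes over the same 3 livers, and with a minimum mean of 5 FPKM it was 1 of 6, against 2.95%. An SD of log2(FPKM + 1) of at least 0.25 was found for 3 of the 8, with Per1 as the third, against 18.3% of all expressed genes. The SD of Per1 fell from 0.32 to 0.13 without liver 3 and that of Cry1 from 0.40 to 0.20 without liver 1, both below that limit. Without liver 1 the number was still 3 of 8, since the SD of Per2 was then 0.28, against 23.3% of all expressed genes, and without liver 3 it was 2 of 8, against 15.4%. With a pseudocount of 5 in place of 1 it was 1 of 8, against 5.39%. It was 4 of 8 with a pseudocount of 0.1, with scaling to the same total and without liver 4, against 29.8%, 18.9% and 19.2% of all expressed genes. The SD of Nr1d1 (0.53) exceeded that of 98.7% of expressed genes, that of Cry1 (0.40) 96.5% and that of Per1 (0.32) 92.6%. At the other end, the SD of Clock (0.04) exceeded that of 2.00% and that of Per3 (0.05) 2.79%. Scaling the libraries to the same total raised these SDs to 0.08 and 0.07, above 14.4% and 10.7% of expressed genes. Per2 (0.23), Nr1d2 (0.18) and Dbp (0.14) lay between; Dbp exceeded 37.2% of expressed genes, and 60.9% with libraries scaled to the same total. The gap between the most deviant liver and its neighbour, as a share of the range, passed the 95% critical value for 4 samples in 0 of the 8, against 5.46% of all expressed genes. Among genes within 1.5-fold of the same mean level, Nr1d1 exceeded 98.8%, Cry1 96.8%, Per3 3.63% and Clock 1.77%. The median SD of the 8 was 0.21, against 0.16 over all expressed genes.

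**Figure D4:**
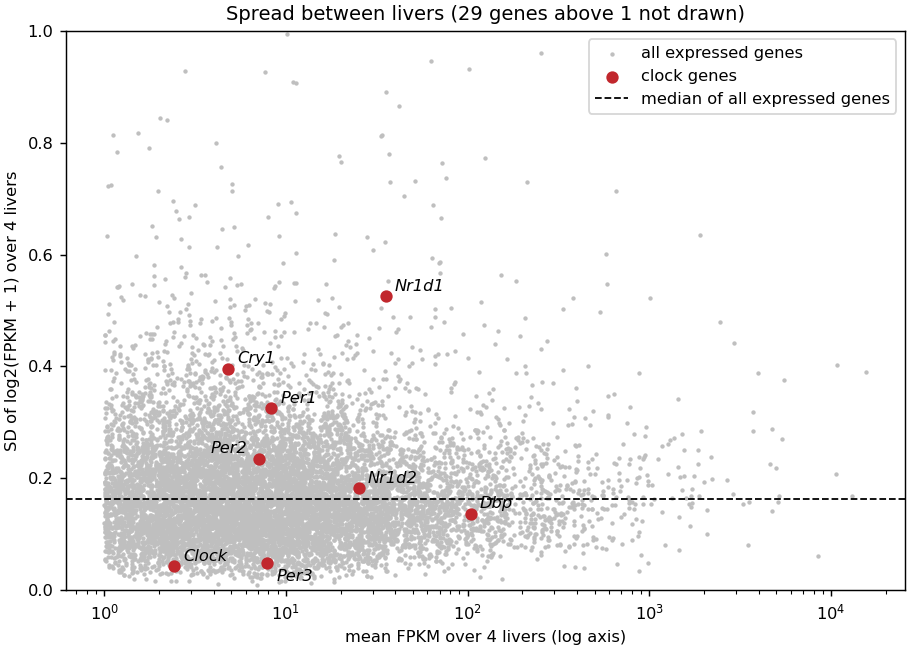
SD of log2(FPKM + 1) over the 4 livers (vertical axis) against mean FPKM (horizontal log axis) for expressed genes (grey; 29 genes with an SD above 1 are not drawn) and the 8 expressed clock genes (red); the dashed line is the median of all expressed genes, 0.16. Nr1d1, Cry1 and Per1 lie high in the cloud, and Clock and Per3 at its lower edge.

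The median deviation of the 8 from their own means was 0.04, 0.00, -0.01 and -0.08 on the log2(FPKM + 1) scale in livers 1 to 4, with 6, 4, 3 and 1 of the 8 above their mean. Over all expressed genes the medians were -0.01, -0.02, -0.01 and 0.04, and 47.2%, 45.1%, 47% and 60.8% of them were above their mean. Liver 4 therefore lay below its gene means in 7 of 8 clock genes, with Cry1 as the exception. These are counts of signs, and some of the genes were almost level with their mean. In liver 4 Nr1d2 was at -0.005 and Per3 at -0.007, and in liver 1 Clock was at 0.002. The haemoglobin and Alas2 rows, which mark red blood cells, summed to 1076, 829, 427 and 705 FPKM. The sum is carried by the 2 Hba-a1 rows, which were highest in livers 1 and 2, as Nr1d1 was, whereas Alas2 had 55.8, 43.8, 64.0 and 57.0 FPKM and was highest in liver 3. Their part in the values of Nr1d1 was not tested.

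Markers of other cell types also differed by liver. In liver 2, where Per1 and Per2 were lowest, 6 of 6 macrophage, 6 of 6 stellate cell and 5 of 6 endothelial genes were above their mean, and 0 of 7 expressed hepatocyte genes were, against 45.1% of all expressed genes. In liver 1, where Nr1d1 was highest and Cry1 lowest, 0 of 6 endothelial and 1 of 6 macrophage genes were above their mean, against 47.2%. There 4 of 6 stellate cell and 3 of 7 hepatocyte genes were above it. In liver 3, where Per1 and Per2 were highest, 0 of 6 stellate cell and 1 of 6 macrophage genes were above their mean, against 47%. There 2 of 6 endothelial and 4 of 7 hepatocyte genes were above it. In liver 4, where 7 of 8 clock genes were below their mean, 6 of 7 hepatocyte, 5 of 6 macrophage, 4 of 6 endothelial and 1 of 6 stellate cell genes were above it, against 60.8%. The summed levels ranged from 155 to 208 FPKM for the macrophage list, from 187 to 291 FPKM for the stellate cell list, from 41.9 to 54.5 FPKM for the endothelial list and from 40249 to 50807 FPKM for the hepatocyte list, in which Alb is at 0. Of 4 expressed cholangiocyte genes, 2, 4, 2 and 0 were above their mean in livers 1 to 4. Fabp4, the only expressed gene of the adipocyte list, had 11.1, 37.5, 11.6 and 18.2 FPKM. The part of these cell type differences in the clock gene values was not tested.

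Other genes of the clock lay near the background of all expressed genes in spread. Of 20 further clock symbols, 17 were in the table and 14 were expressed; the other 3 are alternative symbols of genes listed under another name. A range of at least 2-fold was found for 1 of the 14, against 6.54% of all expressed genes. The median SD of the 14 was 0.16, against 0.16 over all expressed genes. That gene was Ccrn4l, the older symbol of Noct, the rhythmic phosphatase nocturnin, which had 9.02, 6.80, 15.8 and 7.67 FPKM in livers 1 to 4. It was highest in liver 3 and had the order of livers seen for Per1 and Per2.

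The other expressed genes of this list had ranges under 2-fold. Nfil3, a repressor at D-boxes, had 7.0, 11.7, 9.07 and 7.04 FPKM, and Bhlhe40, a repressor at E-boxes, had 55.7, 58.2, 79.1 and 75.7 FPKM. Rora, which encodes a receptor that competes with the REV-ERBs for their elements, had 6.59, 7.68, 5.32 and 6.78 FPKM and was lowest in liver 3. The PAR bZIP genes Tef and Hlf, relatives of Dbp, averaged 50.5 ± 3.76 FPKM and 11.8 ± 0.693 FPKM (SD, n = 4 for both). Cry2 had 10.4 ± 1.10 FPKM and Ciart, a further repressor of the loop, 10.9 ± 1.68 FPKM (each SD, n = 4). Cry2 thus exceeded Cry1 in level in these livers, and its range was 1.27-fold against 2.09-fold for Cry1. The genes Csnk1d and Csnk1e, for kinases that mark PER proteins for degradation, had 20.3 ± 1.14 and 3.97 ± 0.469 FPKM (each SD, n = 4). The rows below 1 FPKM were not compared in range: Rorb was listed at 0 in all 4 livers, and Arntl2 had 0.282, 0.0250, 0.254 and 0.217 FPKM. Timeless, also below 1 FPKM, had 0.638, 0.534, 0.644 and 0.723 FPKM.

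Genes that the clock is known to drive in liver had a wider median spread than all expressed genes. The width was not particular to them. The median SD was 0.27 for the hepatocyte, 0.30 for the endothelial and 0.31 for the feeding and fasting genes, and 0.13 for the temperature-responsive genes. Of 19 such genes, all in the table, 18 were expressed, with a median SD of 0.27 against 0.16 over all expressed genes, and 3 of the 18 had a range of at least 2-fold, against 6.54%. Alas1, the rate-limiting enzyme of haem synthesis, had 223, 349, 497 and 460 FPKM in livers 1 to 4, low in liver 1 and high in livers 3 and 4. Por, the electron donor of the cytochromes P450, had 280, 357, 496 and 437 FPKM in the same order. Lpin1, a phosphatidate phosphatase of triglyceride synthesis, had 33.5, 54.3, 44.7 and 16.4 FPKM, and Pdk4, a kinase that restrains glucose oxidation, 3.73, 5.66, 3.36 and 1.58 FPKM. Both were highest in liver 2 and lowest in liver 4.

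Output genes with a narrow range included Wee1, a kinase of the cell cycle with E-boxes in its promoter, at 8.81 ± 0.371 FPKM, and Upp2, a uridine phosphorylase, at 334 ± 32.2 FPKM (each SD, n = 4). Cyp7a1, the rate-limiting enzyme of bile acid synthesis, had 46.0, 62.0, 38.8 and 66.6 FPKM, and Nampt, which makes a precursor of NAD, 22.4, 35.0, 24.3 and 35.2 FPKM. Both were higher in livers 2 and 4 than in livers 1 and 3. The output genes therefore did not share 1 order of livers.

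**Figure D5:**
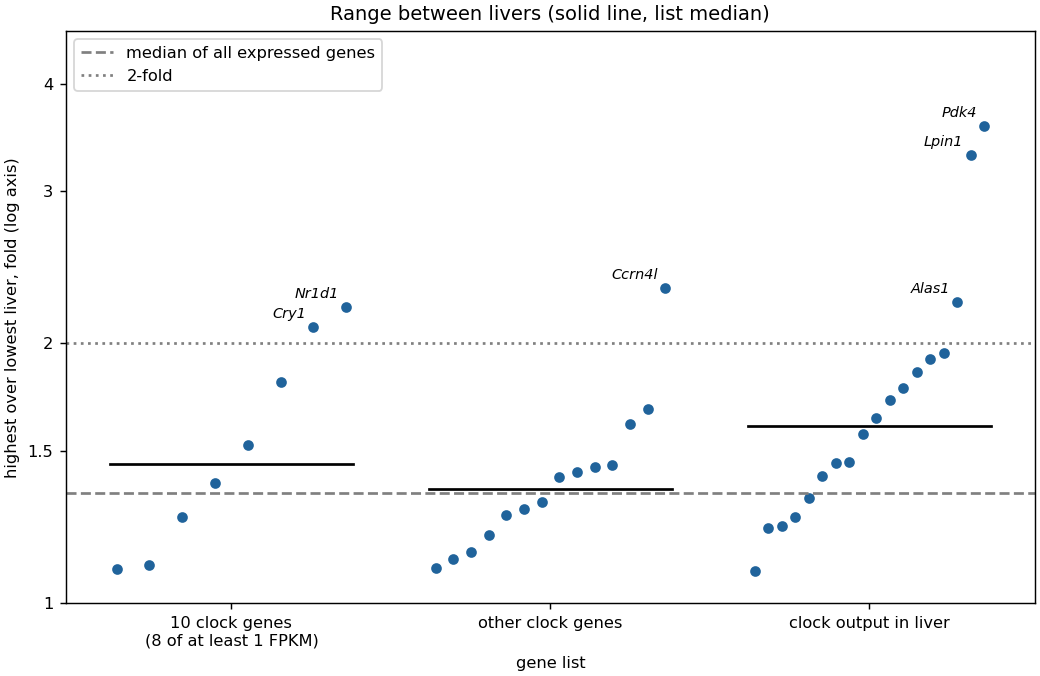
Highest over lowest liver (fold, vertical log axis) for the expressed genes of 3 lists, each sorted from low to high; the solid line is the median of the list, the dashed line that of all expressed genes (1.34) and the dotted line 2-fold. Genes past 2-fold are named, and they are 2 of 8 clock genes, 1 of 14 other clock genes and 3 of 18 output genes.

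The genes whose pattern over the 4 livers was nearest to that of Nr1d1 were named by the root mean square difference of deviations. In the same direction these were Rassf6, Birc5, Sprr1a, Msmp and Serpinb6b, with differences from 0.10 to 0.13. Rassf6, a member of the Ras association domain family, had 13.1, 10.9, 7.36 and 6.14 FPKM in livers 1 to 4. In the opposite direction the nearest were Tgm1, Gbp11, Alas1, Rgs3 and Slc25a30, with differences from 0.04 to 0.13. Tgm1, a transglutaminase, had 2.85, 3.99, 6.41 and 6.70 FPKM. These are the nearest of 10524 genes over only 4 livers and are given as a description.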

How the data were processed

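Poly(A)-enriched RNA libraries of 4 livers were sequenced; per the labels' protocols total RNA was extracted with the RNeasy kit. The submitters' processing notes name FastQC 0.10.1, Trim Galore 0.6.3, cutadapt, STAR 2.7.6a, Cufflinks 2.2.1 and the build mm10, without roles. The unit of the deposited table was inferred to be FPKM, since they are not whole numbers, the libraries sum to 516816 to 570681, and the identifiers have the form Cufflinks writes; the header names no unit. Some genes that are abundant in liver, such as Alb, are listed at 0. Annotation and strand setting are not given in the sources used here. Columns were matched to samples by the description labels, and 0 value columns were left unmatched.

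Values were analysed as log2(FPKM + 1), which understates differences of low genes, with Python 3.11.15, numpy 2.4.6 and pandas 2.3.3. Spread is the SD over 4 livers, between animals only as far as the labels number them separately. The deposited spans overlapped the RefSeq GRCm38 span of their symbol in 99.5% of 22562 symbols, and 52.0% of the starts were equal after adding 1, against 3.00% before, so coordinates are printed with starts raised by 1. Depth was estimated from single-transcript genes of GENCODE vM21 longer than 800 bases, as the value of 1 fragment: the median product of FPKM and length less 200 bases, between 25 and 75. It is approximate, and no counting interval was given. The SD, gap ratio and pattern ranking were tested on simulated data.

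The 10 genes and the lists were chosen with earlier results of these data known. Named genes are the 10, the genes of the lists, and the 5 nearest to the most variable of the 10 in each direction. Genes that overlap a clock gene or share its deposited span (Thra, Sphk2, Tmem165, Pdcl2, Nmu and Mir1191) are named as well. A few genes are not reported here and are in none of the lists. No test was made, since there is 1 group. Alternatives were other pseudocounts, minimum levels and scalings, and each liver left out.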

Additional observations from a re-analysis of the deposited data

Results flagged for a closer look

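A liver that stands apart from the other 3 was looked for by Dixon's ratio (its distance to the nearest other liver over the whole range, on the log2(FPKM + 1) scale, at the 95% critical value) in the 111 rows above 0 of the 10 clock genes and the other lists. The ratio passed it in 5 rows (4.505%), and for 5.46% of all expressed genes. Chance flags about 1 in 20 groups. None of the 10 clock genes was among them, and the highest of these was Per1 at 0.661. Hlf, a PAR bZIP factor related to Dbp, had 12.8 FPKM in liver 4 and 11.4 to 11.5 FPKM in the others (ratio 0.926). Elovl3, a rhythmic fatty acid elongase, had 4.63 FPKM in liver 2 and 8.19 to 8.57 FPKM in the others (0.925). Tspan4, a tetraspanin, had 43.4 FPKM in liver 1 and 59.9 to 63.1 FPKM in the others (0.859). Among cell type markers, Apoa1 was high in liver 4 (15343 FPKM, ratio 0.870), and the cholangiocyte gene Sox9 was low in liver 4 (3.37 FPKM, ratio 0.841).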

How the results depend on the processing

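The mean level of each of the 10 clock genes moved by less than 1 SD between livers in 20 of 20 comparisons of the deposited values with the other scalings. It could hardly do otherwise. The median-ratio factors lay between 0.993 and 1.03, and scaling to the same total kept the mean total of the libraries. The median SD of the expressed clock genes, 0.21, was 0.16 with a pseudocount of 5, where that of all expressed genes was 0.11, and ranged from 0.15 to 0.25 when a liver was left out, lowest without liver 3, where that of all expressed genes was 0.14. The mean log2 ratio of Arntl to Dbp was -5.90 with a pseudocount of 1, which is larger than the mean of Arntl. The median deviation in liver 2, close to 0, was -0.00014 with a pseudocount of 5. That in liver 3 was 0.026 with all libraries scaled to the same total, and ranged from -0.041 to 0.019 when another liver was left out, positive without liver 1. The cause was not tested. The number of clock genes with a range of at least 2-fold was 2 of 8 under both scalings, 3 of 9 with a minimum mean of 0.1 FPKM, against 19.9% of all genes past that minimum, and 4 of 10 with no minimum, against 32.1% of all genes above 0 in any liver. The additions are Arntl and Npas2. No paired analysis was possible because there is a single group. Depth limits Npas2 and Arntl most. The log2 ratio of Cry1 to Nr1d1 and its alternatives were added after seeing the data.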

Other observations

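Genes that respond to glucocorticoids, a timing signal to the liver clock, were mostly above their mean in liver 2, in 7 of 8 genes against 45.1% of all expressed genes, with a median deviation of 0.14 against -0.02. In the same liver 6 of 6 macrophage, 6 of 6 stellate cell, 5 of 6 endothelial and 0 of 7 hepatocyte genes were above their mean, and their part in this was not tested. Of the 8, all expressed, 3 had a range of at least 2-fold, against 6.54% of all expressed genes. Fkbp5, a chaperone of the glucocorticoid receptor, had 7.31, 16.1, 8.80 and 12.1 FPKM in livers 1 to 4, so it was highest in liver 2, where Per1 was lowest. Tat, the tyrosine aminotransferase, had 780, 522, 505 and 335 FPKM, and the transcription factor gene Zbtb16 had 4.88, 3.71, 2.12 and 1.06 FPKM. These 2 were highest in liver 1 and lowest in liver 4, as Nr1d1 was. Klf9, a Kruppel-like factor, had 20.9, 30.4, 27.3 and 26.9 FPKM, Tsc22d3 37.0, 43.8, 41.6 and 34.9 FPKM, and Nr3c1, the glucocorticoid receptor gene, 12.0, 15.3, 13.5 and 15.1 FPKM, each highest in liver 2.

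Of 9 genes that follow feeding and fasting, all expressed, 2 had a range of at least 2-fold, against 6.54% of all expressed genes, and their median SD was 0.31 against 0.16 over all expressed genes. Igfbp1, an insulin-repressed binding protein, had 59.3, 104, 19.6 and 20.1 FPKM in livers 1 to 4. Its range was 5.31-fold, and livers 1 and 2 were high and livers 3 and 4 low. Irs2, an insulin receptor substrate, had 3.95, 3.54, 1.87 and 2.27 FPKM, with the same split. Of the 6 stellate cell genes, 4, 6, 0 and 1 were above their mean in livers 1 to 4. Over all expressed genes the shares were 47.2%, 45.1%, 47% and 60.8%. The part of stellate cells in the split was not tested. G6pc, the glucose-6-phosphatase, had 131, 134, 242 and 149 FPKM and was highest in liver 3. Of 8 temperature-responsive genes, 7 were expressed and 0 of these had a range of at least 2-fold, against 6.54% of all expressed genes, a share at which 0 of 7 does not set them apart. The heat shock gene Hspa1b had 8.22, 6.403, 4.16 and 4.499 FPKM, and the cold-induced genes Cirbp and Rbm3 had 9.12 ± 0.881 and 35.7 ± 3.41 FPKM (each SD, n = 4).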
